A study of Mus musculus with 12 samples.

Results

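Ryk and 9 other receptors for Wnt proteins were followed across blood stem and progenitor cells that carry or lack the transcription factor NFAT5. The 10 genes were taken by symbol from 19494 genes with a probe set, and each had a single probe set. They were the receptor Ryk, the Frizzled receptors Fzd3, Fzd4, Fzd5, Fzd6, Fzd7 and Fzd8, the co-receptors Lrp5 and Lrp6, and the receptor Ror2. Ryk was chosen by its measured difference between HSC and MPP of KO mice, and the others as members of the same receptor families. That difference is therefore a description and carries no test. For Ryk the comparisons of KO with WT share those arrays and are also given without a test.

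Wnt proteins are secreted lipid-modified signals. Frizzled proteins bind them through a cysteine-rich domain, and together with LRP5 or LRP6 they protect beta-catenin from degradation, so that it can act with TCF and LEF factors in the nucleus. RYK and ROR2 are single-pass receptors that bind WNT5A and act largely outside the beta-catenin route. RYK carries a WIF domain that binds Wnt and a kinase-like domain without catalytic activity, and in mouse marrow it is known as a receptor through which WNT5A acts on stem cells.

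The 4 groups of 3 arrays were HSC from KO mice, HSC from WT mice, MPP from KO mice and MPP from WT mice, all untreated. KO mice were Nfat5 fl/fl Vav-Cre, in which the recombinase is made throughout the blood system, and WT mice were Nfat5 +/+ Vav-Cre, so both genotypes carried the Cre. HSC were sorted by flow cytometry as CD48-negative, CD150-positive cells of the LSK compartment (lineage-negative, Sca-1 and Kit positive), and MPP as its CD48-positive, CD150-negative cells. Each of 3 KO mice (2, 11 and 70) and 3 WT mice (3, 12 and 64) gave 1 array per population. The sources used here give neither the ages of the mice nor any array batches.

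All levels are log2 RMA values, in which a step of 1 is a doubling of signal. They compare a gene between arrays and not one gene with another. Array medians lay between 5.88 and 5.91 in KO HSC, 5.85 and 5.91 in WT HSC, 5.82 and 5.85 in KO MPP, and 5.81 and 5.87 in WT MPP. Over the 14620 genes tested, the SD of an array around the mean of its group was 0.438 for HSC of KO mouse 2, the widest. It was 0.276 to 0.378 for the other arrays. Nfat5 stood at 53.1% of WT signal in KO HSC and at 54.8% in KO MPP, with no overlap between genotypes (two-sided exact permutation p = 0.1 in each population, the smallest that 3 against 3 can give). Whether its probe set lies in the deleted part of the gene is not stated. The mean level of 7 measured stem cell markers was 7.60 to 8.20 in KO HSC and 7.45 to 7.78 in WT HSC, against 6.61 to 6.77 in KO MPP and 6.51 to 6.62 in WT MPP. For 6 progenitor markers it was 5.996 to 6.63 in KO HSC and 5.76 to 6.30 in WT HSC, against 9.66 to 9.87 in KO MPP and 9.56 to 9.94 in WT MPP. In such sorted bulk RNA, fewer cells that express a gene and less RNA per cell cannot be told apart.

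The stretch of 250 bases before the annotated start of Ryk is shown because Ryk is the member with the widest range over the arrays. It lies at chr9:102834670-102834919 on the plus strand of GRCm38.p6 and comes from RefSeq. Such windows were read here for 5 of the 10 members, and the other members were not examined in this way. The gene itself spans 102834920 to 102908307 of chromosome 9. Capitals mark each CG dinucleotide.

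Ryk: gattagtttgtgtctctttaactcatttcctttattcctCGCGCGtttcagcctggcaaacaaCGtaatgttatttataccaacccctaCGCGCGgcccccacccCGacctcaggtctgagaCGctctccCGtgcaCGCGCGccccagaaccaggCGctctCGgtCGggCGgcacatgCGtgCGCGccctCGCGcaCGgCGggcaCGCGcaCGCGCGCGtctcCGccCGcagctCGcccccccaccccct

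This window held 33 CG dinucleotides and 65.2% G and C, against medians of 6 and 52.4% over 32851 windows of the same length, and 96.0% of those windows held fewer CG dinucleotides. The windows of Fzd4, Fzd5, Fzd7 and Ror2 held 25, 32, 17 and 24 of them, so all 5 windows that were read were rich in CG. Neither TGGAAA, the core bound by NFAT factors, nor TCAAAG, the core bound by TCF and LEF factors, occurred on either strand of these 5 windows. Over all windows 18.6% held TGGAAA and 13.8% held TCAAAG. The missing match says only that these letters are not in these windows.

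Ryk read higher in HSC than in MPP in each genotype, was highest in KO HSC, and was low in MPP of both genotypes. It read 9.45, 7.93 and 7.69 in HSC of KO mice 2, 11 and 70. It read 6.38, 7.02 and 5.19 in HSC of WT mice 3, 12 and 64. The lowest KO HSC array was thus above the highest WT HSC array. In MPP, Ryk read 4.26, 4.15 and 4.22 in KO mice 2, 11 and 70, and 4.53, 4.22 and 4.63 in WT mice 3, 12 and 64. The MPP values of the genotypes overlapped and all lay under 4.96, the level below which the lowest 25% of genes fell. They were not shown to be above background, so the differences between HSC and MPP can be too small. Ryk passed that filter through its HSC arrays.

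In order of level the groups stood at 8.36 ± 0.95 in KO HSC, 6.20 ± 0.93 in WT HSC, 4.46 ± 0.21 in WT MPP and 4.21 ± 0.055 in KO MPP (SD, n = 3). Neighbours in that order did not overlap, except the MPP groups. The difference that chose Ryk, HSC minus MPP in KO mice, was 4.15, a 17.7-fold higher signal, and 3.60 without the HSC array of KO mouse 2. Within KO mice 2, 11 and 70 it was 5.20, 3.78 and 3.47. The KO minus WT difference was 2.16 in HSC, or 4.47-fold, and 1.61 without that array. In MPP it was -0.25, or -0.37 without WT mouse 12 and -0.16 without WT mouse 64. The spread of Ryk between HSC arrays exceeded that of 94.0% of tested genes in KO and 95.6% in WT, where the median SD was 0.270 in KO and 0.258 in WT.

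**Figure D1:**
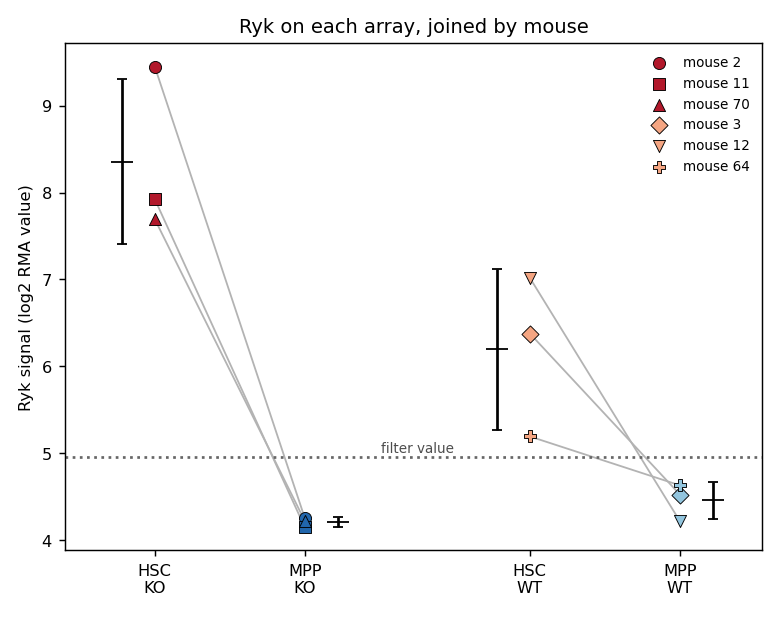
Ryk signal (y axis, log2 RMA value) in HSC and MPP of each KO mouse (left) and WT mouse (right). Symbols are mice, lines join the arrays of a mouse, bars give the mean and SD (n = 3), and the dotted line is the filter value of 4.96. All HSC values lie above the MPP value of the same mouse, by 3.47 to 5.20 in KO and 0.56 to 2.80 in WT mice.

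The arrays of WT mice had no part in the choice of Ryk, and they ask whether the gene differs between HSC and MPP while NFAT5 is present. Ryk was higher in HSC in 3 of 3 WT mice, by 1.85 in mouse 3, 2.80 in mouse 12 and 0.56 in mouse 64. The mean difference was 1.74, or 3.34-fold. Fitted to the 6 WT arrays alone and with no filter on low values, it had an SE of 0.43 and an adjusted p of 0.137 by limma, so it did not pass at 0.05. The fit over all 12 arrays gave an adjusted p of 0.120, but its SE (0.49) also rests on the KO arrays that chose Ryk. The filter of that fit rests on them too, since over the 9 arrays other than KO HSC Ryk averaged 4.95, just under the filter value. Without WT mouse 12 the difference was 1.21 and without WT mouse 64 it was 2.33.

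Cell type markers moved between the groups in which Ryk differed. Endothelial cells also carry Wnt receptors, and the mean of 6 endothelial markers was 5.93 to 6.36 in KO HSC and 5.85 to 6.39 in WT HSC, against 5.33 to 5.62 in KO MPP and 5.63 to 5.73 in WT MPP. Among them Tek, a receptor that stem cells also make, averaged 7.01 in KO HSC and 6.71 in WT HSC, against 4.66 in KO MPP and 4.56 in WT MPP. Pecam1 lay the other way, at 6.82 in KO HSC and 6.66 in WT HSC, against 7.92 in KO MPP and 7.96 in WT MPP. Emcn averaged 7.88 in KO HSC and 7.74 in WT HSC, against 6.60 in KO MPP and 7.87 in WT MPP. Kdr averaged 4.99 in KO HSC and 4.79 in WT HSC, against 4.29 in KO MPP and 4.52 in WT MPP. Vwf, which is also among the stem cell markers, averaged 5.85 in KO HSC and 6.18 in WT HSC, against 5.07 in KO MPP and 5.01 in WT MPP. Cdh5, the endothelial cadherin, stayed low, at 3.99 to 4.20 in KO HSC and 4.01 to 4.35 in WT HSC, against 4.10 to 4.36 in KO MPP and 3.93 to 4.50 in WT MPP. The mean of 6 stromal markers was 5.64 to 5.95 in KO HSC and 5.61 to 5.89 in WT HSC, against 5.66 to 5.85 in KO MPP and 5.69 to 5.89 in WT MPP. The mean of 8 neutrophil markers was 5.64 to 7.96 in KO HSC and 5.94 to 8.22 in WT HSC, against 5.80 to 6.90 in KO MPP and 4.64 to 7.24 in WT MPP. The mean of 4 megakaryocyte markers was 7.62 to 7.95 in KO HSC and 7.68 to 7.78 in WT HSC, against 6.83 to 6.94 in KO MPP and 6.83, 7.80 and 6.86 in MPP of WT mice 3, 12 and 64. The mean of 6 T and NK cell markers was 4.74 to 4.82 in KO HSC and 4.54 to 4.94 in WT HSC, against 5.16 to 5.48 in KO MPP and 5.24 to 5.53 in WT MPP. B cell markers (5 measured) averaged 5.68 to 5.79 in KO HSC and 5.68 to 6.06 in WT HSC, against 6.24 to 6.97 in KO MPP and 6.35 to 6.74 in WT MPP. Erythroid markers (3 measured) averaged 6.36 to 6.69 in KO HSC and 6.22 to 6.62 in WT HSC. In MPP they averaged 6.29 to 6.80 in KO and 6.19 to 6.27 in WT. The KO and WT ranges of the erythroid and endothelial means did not overlap in MPP. The part of these cells in the signal of Ryk, of the other receptors and of the pathway genes was not tested.

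Among the Frizzled receptors none passed in WT HSC against WT MPP. Fzd4, the receptor for norrin as well as Wnt, read 5.87, 5.63 and 5.94 in HSC of WT mice 3, 12 and 64, and 5.34, 5.24 and 5.40 in their MPP. These groups did not overlap, and the difference was 0.49 (95% interval 0.029 to 0.94, adjusted p = 0.326 by limma). In KO mice 2, 11 and 70, Fzd4 read 5.28, 5.69 and 6.08 in HSC and 5.58, 5.13 and 5.43 in MPP, so the populations overlapped there and mouse 2 went the other way from mice 11 and 70. Fzd5, a receptor needed in eye and gut development, varied little, from 7.05 to 7.36 in KO HSC and 7.07 to 7.28 in WT HSC, against 6.98 to 7.13 in KO MPP and 6.91 to 7.10 in WT MPP. Its WT difference of 0.20 had an interval of -0.10 to 0.50.

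Fzd7, a receptor of intestinal stem cells, read 7.06, 7.48 and 6.83 in HSC of KO mice 2, 11 and 70. It read 6.87, 6.64 and 6.42 in HSC of WT mice 3, 12 and 64, so that the genotypes overlapped only by KO mouse 70 and WT mouse 3. The KO minus WT difference in HSC was 0.48 (95% interval 0.033 to 0.93, adjusted p = 0.790 by limma, unadjusted p = 0.0376), and 0.30 without KO mouse 11. In MPP it was -0.075, with 6.88, 6.57 and 6.54 in KO mice 2, 11 and 70, and 6.96, 6.69 and 6.57 in WT mice 3, 12 and 64. Within mice, HSC minus MPP was 0.18, 0.91 and 0.29 in KO mice and -0.097, -0.046 and -0.15 in WT mice. The sign thus differed between genotypes in all 6 mice, while the interaction of 0.56 (95% interval -0.077 to 1.19) had an adjusted p of 0.9996 by limma.

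Fzd6 and Fzd3 act in planar cell polarity, and Fzd6 is also known to support the renewal of mouse stem cells. Fzd6 read 7.69, 7.97 and 7.81 in MPP of KO mice 2, 11 and 70, and 7.53, 7.59 and 7.16 in MPP of WT mice 3, 12 and 64. The genotypes did not overlap in MPP, where the difference was 0.40 (95% interval -0.15 to 0.95, adjusted p = 0.99991 by limma), or 0.27 without WT mouse 64. In HSC they overlapped, with 7.16 to 8.15 in KO and 7.07 to 7.42 in WT. Fzd3 ranged from 4.83 to 5.49 in KO HSC and 4.99 to 5.72 in WT HSC, against 5.02 to 5.71 in KO MPP and 4.63 to 5.86 in WT MPP, so all groups overlapped. Fzd8, known in mouse marrow from quiescent stem cells beside the polarity cadherin Celsr2, read 4.23 to 4.42 in KO HSC and 4.33 to 4.80 in WT HSC, against 4.37 to 4.82 in KO MPP and 4.30 to 4.50 in WT MPP. It was below the filter on every array and was not tested.

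The co-receptor Lrp5 was lower in HSC than in MPP on every array. It read 6.24, 6.74 and 6.04 in HSC of KO mice 2, 11 and 70, and 7.10, 6.88 and 7.06 in their MPP. It read 5.81, 6.34 and 6.48 in HSC of WT mice 3, 12 and 64, and 7.60, 6.91 and 7.10 in their MPP. Neither genotype had an overlap between HSC and MPP. In WT mice the difference was -0.99 (SE 0.25, 95% interval -1.54 to -0.45), which put HSC at 0.503 of the MPP signal, with an adjusted p of 0.0775 by limma that did not pass. It was -1.79, -0.57 and -0.62 within WT mice 3, 12 and 64, and averaged -0.59 without mouse 3. In KO mice it was -0.68, given without a test. Lrp5 and Ryk thus lay in opposite directions between the populations, and neither difference passed in WT mice in the fit of all 12 arrays.

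Lrp6, the closest relative of Lrp5, read 6.22, 7.61 and 7.36 in HSC of KO mice 2, 11 and 70, and 6.73, 6.59 and 7.64 in their MPP. In WT mice 3, 12 and 64 it read 6.74, 7.21 and 6.76 in HSC and 7.54, 7.11 and 7.20 in MPP. All groups overlapped, and the WT difference of -0.38 had a 95% interval of -1.19 to 0.43. It was -0.17 without mouse 3 and -0.62 without mouse 12. Ror2, the other WNT5A receptor of the set, read 4.96, 5.16 and 5.50 in HSC of KO mice 2, 11 and 70, and 6.35, 5.20 and 5.10 in HSC of WT mice 3, 12 and 64. WT mouse 3 alone was high, and the HSC minus MPP difference in WT mice was 0.62 (95% interval -0.033 to 1.28, adjusted p = 0.381 by limma), or 0.31 without mouse 3. In MPP, Ror2 ranged from 4.90 to 5.29 in KO and 4.82 to 5.10 in WT.

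**Figure D2:**
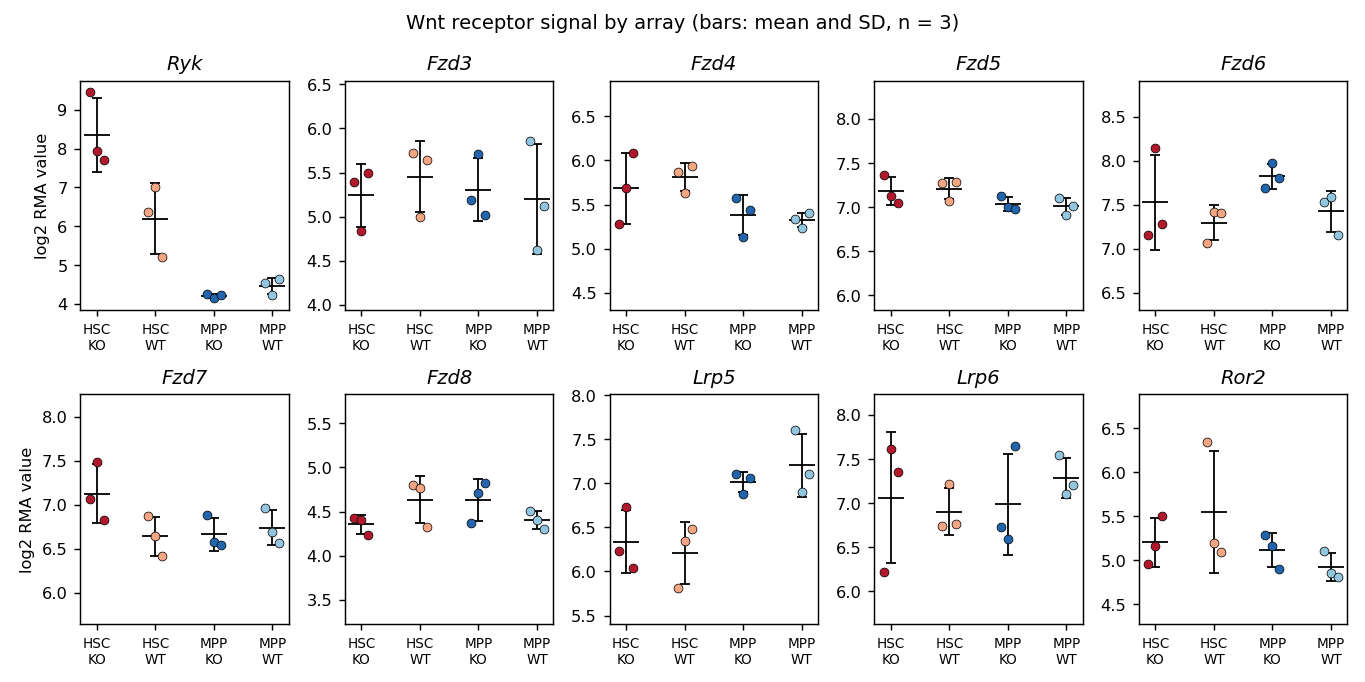
Signal of each of the 10 receptors (y axis, log2 RMA value, own scale for each gene) on the arrays of KO HSC, WT HSC, KO MPP and WT MPP. Points are arrays, and bars give the mean and SD (n = 3). Ryk steps down from KO HSC over WT HSC to both MPP groups, and Lrp5 is higher in both MPP groups.

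Over the set, 0 of 9 tested members passed in WT HSC against WT MPP by limma, beside 2.07% of 14620 tested genes. The 9 include Ryk, whose filter and SE in that fit rest in part on the KO arrays that chose it. Of the 8 tested members other than Ryk, Fzd4 and Lrp5 had an unadjusted p below 0.05, as did 14.1% of all tested genes. WT HSC and WT MPP did not overlap for Ryk and Fzd4, which were higher in HSC, and for Lrp5, which was lower, while 21.3% of tested genes did not overlap. In KO mice, HSC and MPP did not overlap for Ryk and Lrp5, where 17.1% of tested genes did not. The median WT difference of the 10 members was 0.22, against 0.032 over all tested genes. The 10 include Ryk, which KO arrays chose, and Fzd8, which was not tested, so this median does not show a lean of the set. The 8 tested members other than Ryk ran from -0.99 for Lrp5 to 0.62 for Ror2. Of the 9 members other than Ryk, 5 stood above 0 and 4 below it.

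The comparison of KO with WT asks whether receptor signal differs with the loss of NFAT5, and no tested receptor other than Ryk passed. Nfat5 itself, the targeted gene, did not pass by limma either. Its adjusted p was 0.566 in HSC, 0.99991 in MPP and 0.897 in the mean of both populations. A receptor that did not pass can thus still depend on NFAT5, and these tests cannot decide it. In HSC 0 of 8 tested members passed by limma, beside 0% of all genes. The smallest adjusted p was 0.790 for Fzd7, the 1 member whose unadjusted p was below 0.05, beside 6.29% of all tested genes. No KO and WT groups in HSC were apart except those of Ryk, against 8.87% of tested genes. In MPP 0 of 8 passed by limma, beside 0% of all genes, and the unadjusted p was below 0.05 for 0 members, beside 3.19% of all tested genes. The groups were apart for Fzd6 alone, against 9.49% of tested genes. The interaction, and the comparison of the mean of both arrays of each mouse, each gave 0 of 8 members by limma, beside 0% of all genes, and again 0 members had an unadjusted p below 0.05, beside 4.5% of all tested genes in the interaction and 4.45% in the mean. These intervals do not show that the receptors were equal. For the 8 members other than Ryk and Fzd8 they reached from -0.999 to 0.97 in HSC and from -1.11 to 0.95 in MPP.

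**Figure D3:**
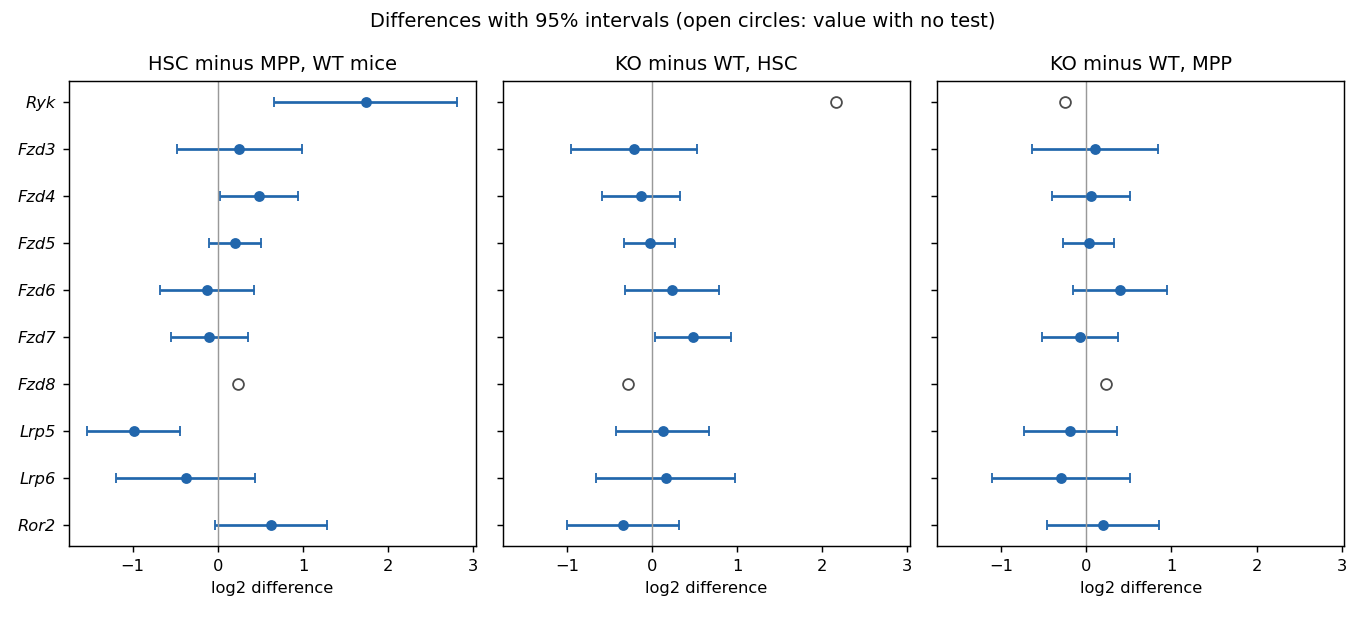
Log2 differences (x axis) of the 10 receptors for HSC minus MPP in WT mice (left), KO minus WT in HSC (middle) and KO minus WT in MPP (right). Points with bars are limma estimates with 95% intervals, and open circles are values given with no test. In the left panel the intervals of Fzd4 and Lrp5 exclude 0, and in the middle panel that of Fzd7 does. The interval of Ryk comes from the fit that includes the KO arrays.

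The rest of the Wnt pathway was read from 7 lists that hold 138 genes, of which 129 had a probe set and 108 passed the filter. In WT HSC against WT MPP 4 of the 108 passed, or 3.7%, beside 2.07% of all genes. In KO HSC against KO MPP 1 of the 108 passed, or 0.926%, beside 1.26% of all genes. That gene was Cd44, which also passed in WT mice. Tspan12, a tetraspanin that works with Fzd4 and norrin, read 6.24, 8.21 and 7.23 in HSC of WT mice 3, 12 and 64, and 5.52, 5.14 and 5.26 in their MPP. It was 1.92 higher in WT HSC (SE 0.41, adjusted p = 0.0404 by limma). With the mouse as a block its adjusted p was 0.105, and the difference was 1.35 (adjusted p = 0.179) without WT mouse 12. Leaving out WT mouse 64 also ended the call (adjusted p = 0.260), as did leaving out KO mouse 2, 11 or 70 (adjusted p = 0.0593, 0.0795 and 0.0627). It was the 1 gene to pass among 12 tested further receptors and co-receptors, a list with a median difference of 0.24 and 10 of 12 genes above 0. Fzd9, another Frizzled, stood at 0.42 and Lgr6, an R-spondin receptor, at 0.35, and neither passed.

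In the beta-catenin arm 1 of 31 tested genes passed. Tle3, a Groucho co-repressor of TCF and LEF factors, fell by 1.42 (SE 0.26, adjusted p = 0.0196 by limma) to 6.73, 7.48 and 6.54 in HSC of WT mice 3, 12 and 64, against 8.30, 8.07 and 8.65 in their MPP. Its adjusted p was 0.0834 with the mouse as a block, 0.164 without WT mouse 3 and 0.209 without WT mouse 64. The scaffold Apc stood at -1.49 and the co-repressor Tle2 at 0.56, and neither passed. The median of this list was -0.063, with 12 of 31 genes above 0.

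Among 13 tested beta-catenin target genes 2 passed, both lower in WT HSC. Myc, the growth-promoting transcription factor, averaged 7.05 ± 0.60 in HSC and 8.54 ± 0.39 in MPP (SD, n = 3), a difference of -1.48 (SE 0.32, adjusted p = 0.0435 by limma). Cd44, a hyaluronan receptor, averaged 7.65 ± 0.25 in HSC and 8.63 ± 0.14 in MPP (SD, n = 3), a difference of -0.98 (SE 0.21, adjusted p = 0.0406 by limma, 0.134 with the mouse as a block). In KO mice Myc averaged 8.33 ± 0.34 in HSC and 8.34 ± 0.32 in MPP (SD, n = 3). Both WT calls were lost when WT mouse 3, 12 or 64 was left out, with adjusted p of 0.125 to 0.187 for Myc and 0.118 to 0.334 for Cd44. Without KO mouse 2 the adjusted p of Myc was 0.0654, and without KO mouse 11 or 70 both calls were lost too (adjusted p of 0.0730 and 0.0636 for Myc, 0.0712 and 0.0529 for Cd44). The list had 9 of 13 genes above 0 and a median of 0.079, so its passing members ran against its median. Lef1, itself a nuclear partner of beta-catenin, stood at -0.61 and did not pass.

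Ligands and their secretion had 0 of 19 tested genes past the test in WT HSC against WT MPP, with 17 of 19 above 0 and a median of 0.18. Wnt2b stood at 0.51, Wnt11 at 0.45 and Wnt9b at 0.26. Secreted antagonists had 0 of 8, with 7 of 8 above 0 and a median of 0.16. Over all tested genes 54.2% stood above 0. The median of all genes depended on the filter, at 0.055 with none and -0.029 with the lowest 50% of genes left out. RYK partners and processing genes had 0 of 12, with a median of -0.022. Aph1a, a subunit of the gamma-secretase that cleaves RYK, stood at -0.98 and Psenen, another, at -0.46. Planar polarity and calcium genes had 0 of 20, with a median of -0.053, and the kinase Camk2g stood at -0.50.

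No pathway gene passed in KO against WT, in HSC or in MPP (0 of 108 each by limma, with smallest adjusted p of 0.551 and 0.99991). In HSC, Myc read 8.64, 8.37 and 7.97 in KO mice 2, 11 and 70, and 7.28, 7.52 and 6.37 in WT mice 3, 12 and 64. The groups did not overlap, and the difference was 1.27 (SE 0.32, adjusted p = 0.551 by limma). Tspan12 read 6.32, 6.03 and 5.39 in KO HSC and 6.24, 8.21 and 7.23 in WT HSC, a difference of -1.31 (SE 0.41, adjusted p = 0.638), or -0.82 without WT mouse 12. The protein kinase C gene Prkca stood at 1.25, Aph1a at 0.74, and Wls, the carrier that brings Wnt to the cell surface, at -0.85. In MPP, Btrc, part of the ligase that marks beta-catenin for degradation, averaged 6.31 ± 0.64 in KO mice, against 7.53 ± 0.056 in WT mice (SD, n = 3). This difference of -1.22 did not pass. The medians of the 7 lists lay between -0.053 and 0.10 in HSC and between -0.12 and 0.066 in MPP, against 0.021 and 0.0024 over all tested genes.

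**Figure D4:**
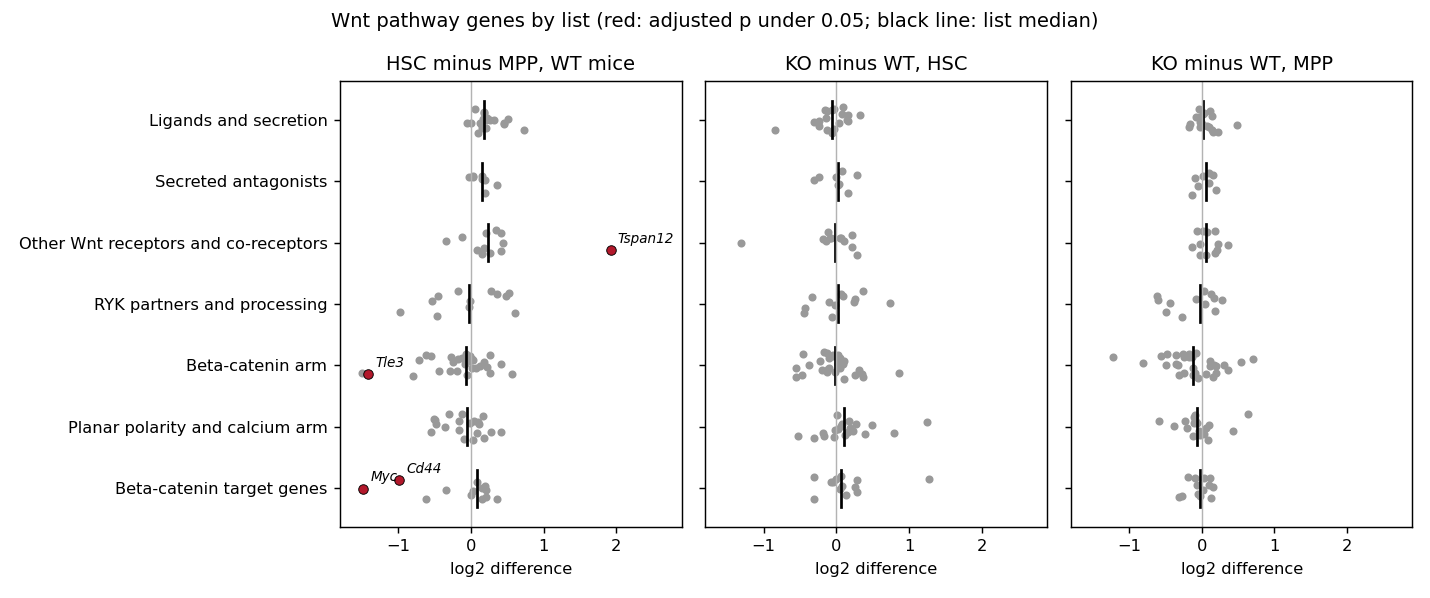
Log2 differences (x axis) of the tested genes of 7 Wnt pathway lists (rows) for HSC minus MPP in WT mice (left), KO minus WT in HSC (middle) and KO minus WT in MPP (right). Red points passed at an adjusted p under 0.05 and are named, and black lines are list medians. In the left panel Tspan12 lies at 1.92, Tle3 at -1.42, Myc at -1.48 and Cd44 at -0.98, and no point is red in the other panels.

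The genes whose pattern was most like that of Ryk were found by Pearson correlation over the 12 arrays. They were Clca3a2 (r = 0.94), Cdk18 (0.94), Dcp1b (0.92), Mamdc2 (0.92) and Gbx2 (0.92). The arrays fall into HSC and MPP clusters and share mice, and over the 6 HSC arrays alone r was 0.88, 0.91, 0.93, 0.75 and 0.84. Those 6 are among the 12 arrays by which the genes were picked, so these r are no separate check. Mamdc2 averaged 7.97 ± 0.39 in KO HSC and 7.20 ± 0.19 in WT HSC, against 6.01 ± 0.082 in KO MPP and 5.96 ± 0.17 in WT MPP (SD, n = 3). Of the other receptors Fzd7 (0.59) and Fzd5 (0.58) ran most nearly with Ryk over the 12 arrays, and Lrp5 (-0.68) most nearly against it.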

How the data were processed

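RNA of sorted HSC and MPP was amplified from picogram amounts and labelled with biotin, per the labels' protocols. Each deposited value is the log2 intensity of a probe set after RMA normalization by the authors, per the submitters' processing notes. These give limma too, and no versions. RMA gives the probe intensities of all arrays one distribution, so a shift of all genes would be largely removed. It also compresses differences of weak signals. Array medians of the deposited probe set values still ran from 5.81 to 5.91. Scanner files were not used here, and the number of arrays limits precision.

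Of 22142 probe sets 19527 had 1 gene symbol, 0 had several and 2615 had none. All 19527 gene identifiers matched the GRCm38.p6 table. For 33 genes the probe set with the highest mean was kept. The lowest 25% of genes by mean over the 12 arrays (below 4.96) were left out of tests, which kept 14620 genes and 9 of 10 members.

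Group means were fitted to all 12 arrays with limma 3.58.1 (R 4.3.3, statmod 1.5.0), with two-sided moderated tests and Benjamini-Hochberg adjustment over all tested genes. The fit was also run on simulated data with independent arrays and large shifts in WT HSC. That run covers neither arrays that share a mouse nor small differences. HSC and MPP arrays of a number come from the same mouse, and their deviations from the group mean correlated with r of 0.032 to 0.091 across genes. One alternative fitted the mouse as a block, fixed between populations and random between genotypes (consensus correlation 0.0723). Members, pathway and marker lists were chosen with earlier results of these data known. The text names every member, Nfat5, pathway genes that passed or had among the 3 lowest p of their list, and the 5 genes most like Ryk. Intervals are at 95%.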

Additional observations from a re-analysis of the deposited data

Results flagged for a closer look

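Fzd7 drew attention in a search of the 10 members, because HSC minus MPP had opposite signs in the genotypes. It was above 0 in each of 3 KO mice and below 0 in each of 3 WT mice. The share of all tested genes with such a split was not counted. The mean within-mouse difference was 0.56 higher in KO than in WT mice. The test of that difference, the limma interaction, had an adjusted p of 0.9996, and the value was 0.33 without KO mouse 11, so the contrast in signs did not pass.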

How the results depend on the processing

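The count of members past the test was 0 in every comparison and alternative, except that Ryk alone passed in WT HSC against WT MPP without the HSC array of KO mouse 2 (a count of 0 to 1 when mice or that array were left out, with the Ryk difference between 1.21 and 2.33). There the difference stayed at 1.74 and its adjusted p was 0.0435, because an array that chose Ryk no longer entered the shared spread (SE 0.37, against 0.49 with it), so this pass is no support for a difference. The fit of the 6 WT arrays with no filter was chosen after the data were seen, and 0 members passed in it. With the mouse as a block the Ryk difference was 1.74 (adjusted p = 0.177 by limma) and 0 members passed. That fit kept the filter and took in the KO arrays that chose Ryk, so its SE (0.48) rests in part on them. With the lowest 50% of genes left out, Ryk, Fzd3, Fzd4 and Ror2 were not tested. The block changed no call of a member.

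Several differences of tested members between KO and WT, none of which passed, changed sign when a mouse or that array was left out. In HSC the ranges were -0.33 to 0.076 for Fzd4, -0.12 to 0.036 for Fzd5, -0.078 to 0.42 for Fzd6, -0.074 to 0.27 for Lrp5, -0.12 to 0.58 for Lrp6 and -0.57 to 0.057 for Ror2. In MPP they were -0.18 to 0.43 for Fzd3, -0.045 to 0.18 for Fzd4, -0.022 to 0.074 for Fzd5, -0.18 to 0.036 for Fzd7 and -0.34 to 0.012 for Lrp5. Between KO and WT the sign held for Fzd3 and Fzd7 in HSC, and for Fzd6, Lrp6 and Ror2 in MPP. HSC minus MPP in WT mice ran from -0.32 to 0.037 for Fzd6. No other setting turned a sign. Lrp5 did not pass in any alternative (adjusted p of 0.0555 to 0.449).

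Over all genes, 302 passed in WT HSC against WT MPP, against 180 with the mouse as a block and 82, 96 and 70 without WT mice 3, 12 and 64. Fitting only the arrays compared, with or without the filter, ended the calls of Tle3, Tspan12, Myc and Cd44, and a second quantile normalization or a trended prior those of Myc and Cd44. Signals near the filter value limit what these arrays can show for Fzd8, Fzd3, Ror2 and for Ryk in MPP and in HSC of WT mouse 64.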
